A study of Mus musculus with 178 samples.

Results

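The variable genes of the immunoglobulin light chains were taken as all rows of the deposited count table whose symbol begins with Igkv (kappa) or Iglv (lambda). The rule gave 163 of 55450 genes: 160 kappa genes on chromosome 6 between 67555497 and 70704177, and 3 lambda genes on chromosome 16 between 19085017 and 19260859 (GRCm38). They were measured by bulk RNA-seq in 178 whole-blood libraries from 45 young adult C57BL/6J mice (strain and age from the study's methods), with 4MOSC1 oral carcinoma cells implanted in the tongue or buccal mucosa. Every mouse received the antibody against PD-1 (antiPD1 in the labels), so that no untreated or tumor-free mice were available for comparison, and blood was drawn on Days 4, 9, 17 and 24, with Day 4 before treatment. Mice were later classed by tumor size as responders (Responder; 15, 15, 14 and 15 libraries on the 4 days) or non-responders (NonResponder; 29, 30, 30 and 30 libraries). The response label is an outcome of the mice and not an allocation.

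A light chain is made when a B cell joins 1 of many variable genes to a joining segment, which is then spliced to a constant gene. Kappa is tried before lambda in most B cells, and the mouse lambda locus holds very few variable genes, so that most mouse antibodies carry kappa. In blood the transcripts come mainly from resting B cells, which each express their own rearranged gene at a modest level, and from the few circulating plasma cells, which express theirs at a very high level. In whole blood, fewer cells of a type and less RNA per cell cannot be told apart.

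The germline 3′ ends are shown because the last bases of a variable gene open the most variable loop of the light chain (CDR3), next to the joining segment. The ends of the 3 lambda genes and of Igkv1-117, its near copy Igkv1-110 and Igkv1-135 are given as the last 60 bases of the annotated transcript (GENCODE M21, GRCm38), with capitals from the conserved cysteine codon to the end of the germline gene.
Iglv1: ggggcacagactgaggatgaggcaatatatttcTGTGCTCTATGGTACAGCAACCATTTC
Iglv2: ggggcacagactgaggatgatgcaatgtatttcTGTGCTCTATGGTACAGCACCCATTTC
Iglv3: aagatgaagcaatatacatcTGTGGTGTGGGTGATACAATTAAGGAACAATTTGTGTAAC
Igkv1-117: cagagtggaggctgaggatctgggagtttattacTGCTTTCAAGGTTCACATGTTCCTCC
Igkv1-110: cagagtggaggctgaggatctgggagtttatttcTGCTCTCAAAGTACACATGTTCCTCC
Igkv1-135: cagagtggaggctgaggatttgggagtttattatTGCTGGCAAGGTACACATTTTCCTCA

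Iglv1 (chr16:19085017-19085500, minus strand) and Iglv2 (chr16:19260401-19260859, minus strand) were identical at 354 of 366 aligned transcript bases (96.7%), whereas Iglv3 (chr16:19241207-19241690, minus strand) shared 62.5% with Iglv1. Igkv1-117 (chr6:68121046-68121827, plus strand) and Igkv1-110 (chr6:68270485-68271267, plus strand) were identical at 391 of 401 bases (97.5%), and Igkv1-117 and Igkv1-135 (chr6:67609713-67610508, plus strand) at 80.5%. This likeness limits the counts, which were estimated counts that could divide a read between genes. Of the values above 0 of Igkv1-117 and of Igkv1-110, 77.5% were not whole numbers (over 0.004 from one), so that their separate levels are uncertain. For Iglv1 and Iglv2 the share was 7.30%, and for Igkv19-93 and Igkv14-111 it was 0%. Over the 163 genes, 117 shared a stretch of 50 identical bases with another of them, and 11.4% of their values above 0 were not whole, close to the 10.3% of all count values above 0.

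Whole blood left little depth for these genes. Total counts per library ranged from 26058957.99 to 82208664.90 (median 51971364.99), and haemoglobin genes took 68.7% to 88.0% of them. Light variable counts ranged from 56 to 8399.45 per library (median 2587.5). The library of non-responder 29 on Day 24 held the 56 counts and stood apart, whereas the next smallest sum was 758. The Day 17 library of non-responder 24 is labelled Responder but was kept with the non-responders, as the labels of that mouse read on the other days. Ear tags of 4 digits were carried by 11 responders and 7 non-responders and tags of 3 digits by 4 and 23, so that the tag series and response were partly confounded.

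Of the 163 genes, 32 had no count in any library and are named here once: Igkv1-35, Igkv1-136, Igkv2-93-1, Igkv2-95-1, Igkv2-95-2, Igkv2-113, Igkv3-8, Igkv4-65, Igkv8-22, Igkv11-118, Igkv12-42, Igkv12-66, Igkv12-67, Igkv13-54-1, Igkv13-55-1, Igkv13-56-1, Igkv13-57-1, Igkv13-57-2, Igkv13-61-1, Igkv13-62-1, Igkv13-64, Igkv13-71-1, Igkv13-73-1, Igkv13-74-1, Igkv13-78-1, Igkv13-80-1, Igkv13-87, Igkv14-134-1, Igkv15-101, Igkv15-101-1, Igkv15-102 and Igkv17-134. All but Igkv1-35 are annotated as pseudogenes. The 60 annotated pseudogenes together took 0.257% of the light variable counts, and the highest of them, Igkv4-77, averaged 2.39 counts per library and had a count in 136 libraries. Of the 103 genes not annotated as pseudogenes, 1 was without a count. A count was present in all 178 libraries for 28 genes and in at least 170 libraries for 72 genes, whereas 12 genes had one in only 1 to 3 libraries.

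Use of the genes was broad, and Iglv1 led in most libraries. Per length (TPM, a length-scaled level, as a share of the summed light variable TPM), Iglv1 was the highest at 7.93% ± 1.04 (SD, n = 178 libraries; range 5.23% to 10.9%). Igkv1-117 followed at 5.66% ± 0.70, Igkv1-135 at 4.82% ± 0.70, Igkv10-96 at 4.40% ± 0.67 and Igkv19-93 at 4.05% ± 0.59. The range of 1 SD around Iglv1 lay above that around Igkv1-117, whereas those of the next neighbours in this order overlapped. The next 5 were Igkv1-110 (3.84%), Igkv6-23 (3.15%), Igkv14-111 (2.71%), Igkv5-43 (2.64%) and Igkv6-15 (2.48%). The 10 highest genes held 41.7% of the light variable TPM, the 20 highest 60.7% and the 50 highest 89.0%. By counts, Iglv1 was the highest gene in 159 libraries and Igkv1-117 in the other 19.

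**Figure D1:**
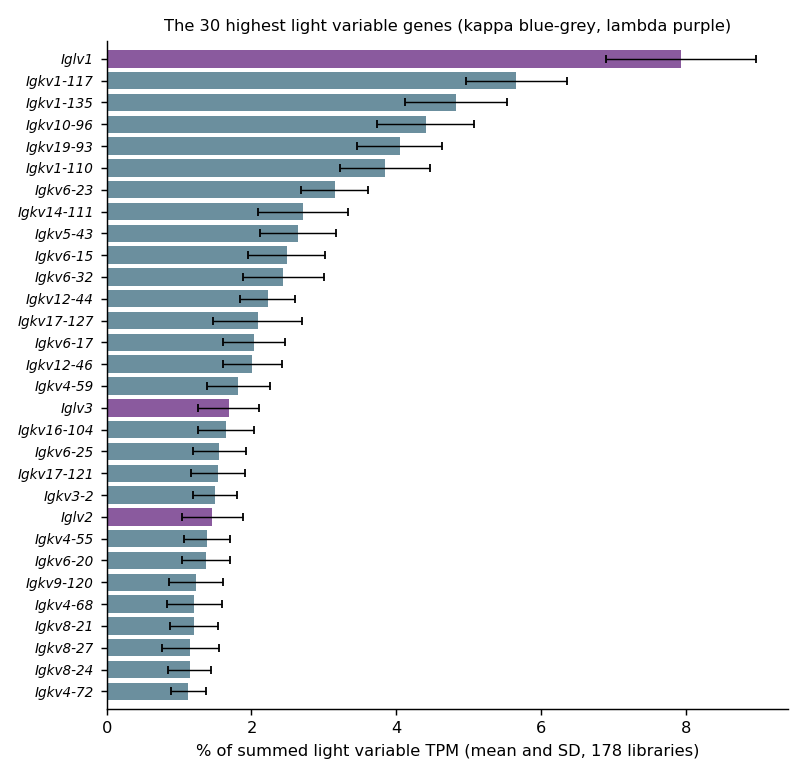
Mean share of the summed light variable TPM (x axis, %) of the 30 highest genes, with bars for 1 SD over 178 libraries and the kappa and lambda genes in different colors. Iglv1 was the highest at 7.93%, ahead of Igkv1-117 at 5.66% and Igkv1-135 at 4.82%, and the decline after the first genes was gradual.

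The other lambda genes were far lower than Iglv1 per length, Iglv3 at 1.69% and Iglv2 at 1.46%. The largest kappa families by TPM were Igkv1 (13 genes, 15.5% of the light variable TPM), Igkv6 (9 genes, 13.9%) and Igkv4 (33 genes, 12.3%). The Igkv13 family had 18 genes, of which 16 are pseudogenes and 14 were without a count, and took 0.885%. The kappa genes lie in both orientations, so that some join by deletion and others by inversion of the DNA between, and the 75 genes on the plus strand took 44.5% of the kappa TPM. When the kappa locus was divided by position, the part from 67555497 to 68591832 took 29.7% of the light variable TPM, the middle part from 68631963 to 69649363 took 22.7% and the part from 69681406 to 70704177 took 36.6%. Genes were thus used along the whole locus, with the lowest share per gene that is no pseudogene in the middle (0.708%, against 1.14% and 0.872%).

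The summed light variable share was highest on Day 4 and fell to Day 9 in both response groups. As a share of all counts other than haemoglobin, it was 0.0375% ± 0.0068 (SD, n = 29; lowest 0.0243%, median 0.0375%, highest 0.0532%) on Day 4 in non-responders. It was 0.0242% ± 0.0046 (n = 30; 0.0161%, 0.0245%, 0.0332%) on Day 9. On Day 17 it was 0.0276% ± 0.0099 (n = 30; 0.0154%, 0.0253%, 0.0599%) and on Day 24 0.0260% ± 0.0081 (n = 30; 0.00094%, 0.0262%, 0.0521%). The Day 4 and Day 9 libraries overlapped in range, but the share was higher on Day 9 than on Day 4 in only 2 of 29 mice.

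In responders the share was 0.0317% ± 0.0102 (n = 15; lowest 0.0152%, median 0.0284%, highest 0.0551%) on Day 4 and 0.0204% ± 0.0061 (n = 15; 0.0105%, 0.0195%, 0.0368%) on Day 9. It was 0.0292% ± 0.0136 (n = 14; 0.0140%, 0.0272%, 0.0550%) on Day 17 and 0.0253% ± 0.0053 (n = 15; 0.0155%, 0.0254%, 0.0353%) on Day 24. Again 3 of 15 mice were higher on Day 9 than on Day 4, and the spread was widest on Day 17. The difference from Day 4 to Day 9 was -0.62 on the log2 scale in responders (pooled SD 0.44) and -0.64 in non-responders (pooled SD 0.27). On TMM-scaled CPM (counts scaled to a common library size), which offset the composition of each library, the same differences were -0.62 and -0.61, and 0 of 15 responders and 1 of 29 non-responders were higher on Day 9.

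**Figure D2:**
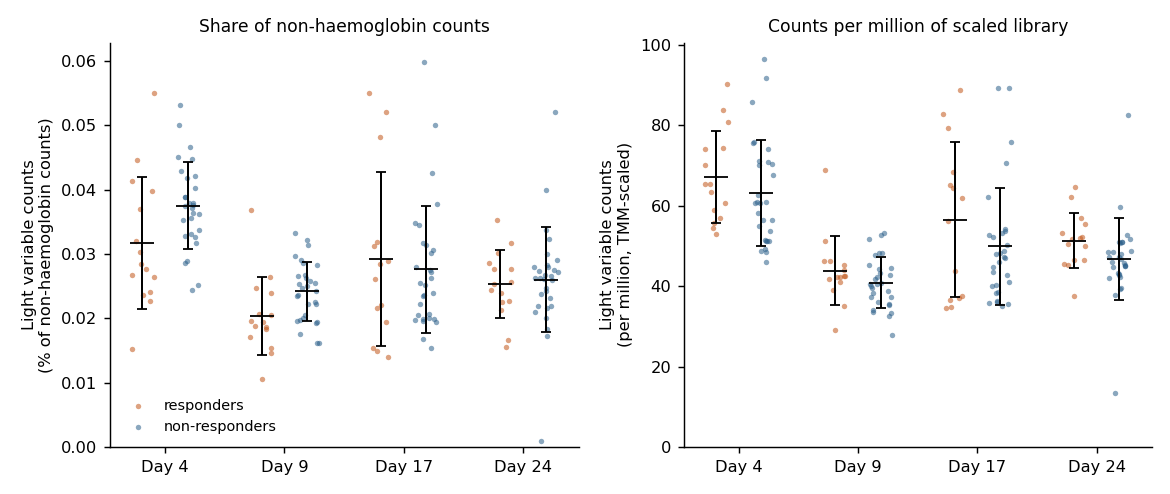
Summed light variable genes by day in responders and non-responders, as a share of non-haemoglobin counts (left, %) and as TMM-scaled CPM (right), with a point per library, a bar for the mean and whiskers for 1 SD. The Day 9 libraries sit below most Day 4 libraries in both groups, and Day 17 has the widest spread.

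Which group stood higher depended on the scale. On Day 4 the responders were lower than the non-responders by the share of non-haemoglobin counts (log2 difference -0.29, pooled SD 0.34) and by the share of all counts (-0.67, pooled SD 0.61), but slightly higher on TMM-scaled CPM (0.10, pooled SD 0.27), per light constant count (0.07, pooled SD 0.11) and per count of a list of 12 mature B cell genes (0.09, pooled SD 0.12). Day 9 gave the same pattern, with -0.28, -0.61, 0.09, 0.13 and 0.14 (pooled SDs of 0.33, 0.51, 0.24, 0.11 and 0.16). Haemoglobin took 83.0% ± 4.1 of the counts in responders and 77.8% ± 5.2 in non-responders on Day 4, and 82.7% ± 3.3 and 78.2% ± 3.7 on Day 9. Its part in these differences was not tested. The difference exceeded its pooled SD by the share of all counts on each day and per light constant count on Day 9, and was smaller than it on the other scales.

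Gene by gene, the fall from Day 4 was tested with edgeR's quasi-likelihood test over all genes that passed the filter on low counts, with Benjamini-Hochberg adjustment and a call where the adjusted p was 0.05 or less. The 3 later days of a group share its Day 4 libraries and are not independent of each other. In non-responders 70 of the 163 genes passed the filter, and 66 of the 70 were lower on Day 9 than on Day 4 and 0 higher, where 27.5% of all 13009 genes tested were lower and 23.3% higher. The median log2 difference was -0.62 over the 70 genes and -0.01 over all genes tested. In responders 65 genes passed, and 42 of the 65 were lower on Day 9 and 0 higher, where 14.2% of all 12560 genes tested were lower and 13.5% higher. Their median was -0.58, against 0.01 over all genes.

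The 10 highest genes all fell by this test from Day 4 to Day 9 in each group, with log2 differences of -0.73 to -0.55 in non-responders and -0.78 to -0.46 in responders. Igkv10-96 was at 2.31 CPM in the median non-responder library on Day 4 (1.68 to 4.92) and at 1.54 on Day 9 (1.02 to 1.99). Its ranges met only between 1.68 and 1.99, and edgeR gave a log2 difference of -0.73 (SE 0.09, adjusted p = 2.1e-11). In responders Igkv10-96 went from 2.68 (1.79 to 3.56) to 1.54 (1.28 to 2.70), a log2 difference of -0.66 (SE 0.13, edgeR adjusted p = 0.000118). The ranges of the responders overlapped more than those of the non-responders.

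Iglv1, the main lambda gene, was at 5.76 CPM in the median non-responder library on Day 4 (4.13 to 9.32) and at 3.78 on Day 9 (2.34 to 5.57), and fell by 0.64 on the log2 scale (SE 0.08, edgeR adjusted p = 6.1e-11). In responders Iglv1 was at 5.52 (3.81 to 9.31) and 3.95 (2.73 to 5.05), and fell by 0.55 (SE 0.12, edgeR adjusted p = 0.00028). Its ranges overlapped in each group, with the upper Day 4 libraries above every Day 9 library. Iglv2 and Iglv3, each at about 1 CPM or below, fell in non-responders (log2 -0.34, SE 0.11, edgeR adjusted p = 0.0049; -0.48, SE 0.10, adjusted p = 4.6e-05). In responders their differences of -0.35 (SE 0.21) and -0.24 (SE 0.17) were not called (edgeR adjusted p of 0.21 and 0.32).

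The first call by p among responders on Day 9 was Igkv4-68, from 1.03 CPM (0.669 to 2.02) to 0.545 (0.334 to 0.760), with a log2 difference of -0.93 (SE 0.16, edgeR adjusted p = 1.0e-05). Only Day 9 libraries lay below 0.669 and only Day 4 libraries above 0.760. By size, 3 called genes lay further below Day 4 with larger errors, Igkv4-86 (log2 -1.02, SE 0.29), Igkv13-84 (-1.01, SE 0.30) and Igkv1-122 (-0.97, SE 0.30), with edgeR adjusted p of 0.0067, 0.0085 and 0.011. Igkv19-93, whose values were all whole numbers, went in responders from 2.43 (1.89 to 4.17) to 1.56 (0.731 to 2.09), a log2 difference of -0.78 (SE 0.13, edgeR adjusted p = 1.04e-05). By family, all 8 tested Igkv6 genes, all 7 tested Igkv8 genes and 13 of 15 tested Igkv4 genes were called lower in non-responders, and 7 of 7, 2 of 7 and 9 of 14 in responders. Of the Igkv1 genes, the largest family by TPM, 4 of 6 tested were called lower in non-responders (median log2 difference -0.46) and 5 of 5 in responders (-0.69). Whether families differed was not tested. Igkv4-50 was the sole tested gene with a higher fitted level on Day 9 in responders (log2 0.43, SE 0.37, edgeR adjusted p = 0.399), and a single library, that of responder 7, lay far above the others.

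**Figure D3:**
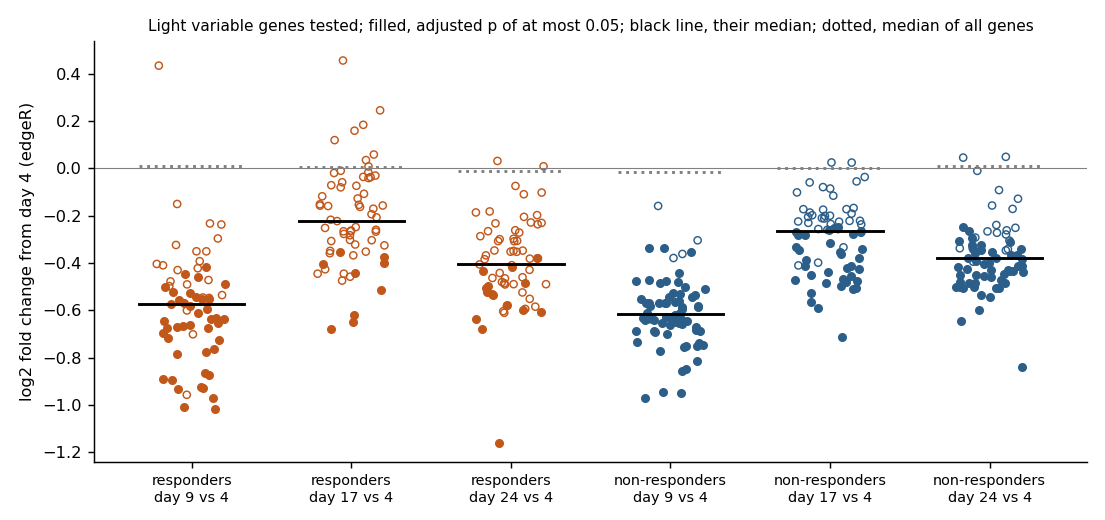
Log2 difference from Day 4 (y axis, edgeR) of each light variable gene tested, by later day and response group, with filled points for an adjusted p of 0.05 or less, a black line at their median and a dotted line at the median of all genes tested. On Day 9 the medians were -0.58 in responders and -0.62 in non-responders, and on Day 17 they were closer to 0 at -0.22 and -0.27.

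On Day 17 and Day 24 fewer genes were called. In non-responders 35 of 70 were lower on Day 17 and 0 higher (all genes tested, 24.2% lower and 21.9% higher), with a median log2 difference of -0.27. On Day 24, 50 of 70 were lower and 0 higher (all genes tested, 24.8% and 23.8%), with a median of -0.38. Iglv1 was the first by p on each of these days, at 3.92 CPM (2.47 to 7.87) on Day 17 and 4.09 (1.66 to 6.95) on Day 24, with log2 differences of -0.56 and -0.53 (SE 0.08 each, edgeR adjusted p = 1.2e-08 and 1.0e-07). In these non-responders the Iglv1 range on each later day overlapped that of Day 4.

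In responders 9 of 65 genes were lower on Day 17 and 0 higher (all genes tested, 13.4% lower and 12.2% higher), with a median of -0.22, so that the share called lower (13.8%) was near the background. On Day 24, 15 of 65 were lower and 0 higher (all genes tested, 9.94% and 7.44%), with a median of -0.41. Igkv14-100 had the largest difference on Day 24, from 0.378 CPM (0.0675 to 0.602) to 0.162 (0.0637 to 0.310), at -1.16 on the log2 scale (SE 0.25, edgeR adjusted p = 0.0015). Its ranges overlapped at the low end. The other leading calls by p were Igkv4-68 (-0.62 on Day 17 and -0.64 on Day 24), Igkv4-55 (-0.65 on Day 17), Igkv6-32 (-0.52 on Day 17) and Igkv19-93 (-0.53 on Day 24). By size, Igkv4-91 was the largest call on Day 17 (-0.68). On Day 24 Igkv12-41 (-0.68), Igkv14-126 (-0.61) and Igkv4-91 (-0.60) were larger than Igkv19-93. None of the genes that passed the filter on low counts (65 of 163 in responders and 70 in non-responders) was called higher than on Day 4 on a later day. With every gene kept that had 1 count in any library, edgeR called 3 higher: Igkv4-71 in responders on Day 17 (log2 2.25, SE 0.66, adjusted p = 0.020), Igkv12-49 in non-responders on Day 17 (1.18, SE 0.32, adjusted p = 0.047) and Igkv14-126-1 in non-responders on Day 24 (1.56, SE 0.37, adjusted p = 0.0060). Over all 178 libraries these genes had 99.36, 4 and 16 counts, in 61, 2 and 10 libraries.

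The responder counts rest in part on the 11 mice with 4-digit tags. Within those mice 23 of 64 tested genes were called lower on Day 9, 14 on Day 17 and 2 on Day 24 (all genes tested, 9.3%, 12.1% and 1.66% lower). Among the 4 responders with 3-digit tags the counts were 10 of 67, 0 and 0 (all genes tested, 3.31%, 0% and 0%), so that no gene of the whole table was called lower there on Day 17 or Day 24. In non-responders the 4-digit tags alone (7 mice) gave 14 of 66, 6 and 1 (all genes tested, 6.2%, 6.03% and 0.931%). The 3-digit tags alone gave 67 of 70, 34 and 43 there (all genes tested, 28.7%, 27.8% and 28.4%). With the mouse as a block the counts were 48 of 76 tested, 10 and 15 in responders and 71 of 80, 39 and 55 in non-responders (all genes tested, 15.9%, 13.7% and 9.75% lower in responders and 25.6%, 21.3% and 23.1% in non-responders).

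A set of 11 Day 17 libraries stood apart in a measure that uses none of these genes, which was chosen after the data had been seen. In them mt-Atp8, a mitochondrial transcript of 204 bases, had 4.83 to 6.40 counts per 100 counts of mt-Co1, a mitochondrial transcript of 1545 bases, against at most 2.86 in the other 33 libraries of that day. The set comprised the libraries of responders 1, 2, 4, 12, 13, 14 and 15 and of non-responders 3, 6, 8 and 26, with 6 tags of 3 digits and 5 of 4 digits. On the other days 1 library, that of non-responder 2 on Day 24, was as high (5.88), and all others were at 4.02 or below. Counts of short ribosomal protein transcripts per 100 counts of long ones were 39.6 to 73.2 in the 11 libraries and 18.5 to 43.4 in the other 33. On Day 9 they were 16.9 to 55.9 (median 23.1).

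The light variable genes, whose annotated transcripts are 200 to 501 bases long (median 358), were high in the same 11 libraries. Light variable counts per count of the mature B cell list were 0.0644 to 0.0763 there, without overlap with the 0.0351 to 0.0591 of the other 33. Per light constant count they were 0.436 to 0.475, against 0.317 to 0.458 in the other 33 and 0.311 to 0.521 (median 0.355) on Day 9. On TMM-scaled CPM they were 56.1 to 89.3, against 34.5 to 79.3. As a share of non-haemoglobin counts they were 0.0261% to 0.0599% (median 0.0426%), against 0.0140% to 0.0348% (median 0.0222%). The part of transcript length in the Day 17 values was not tested.

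**Figure D4:**
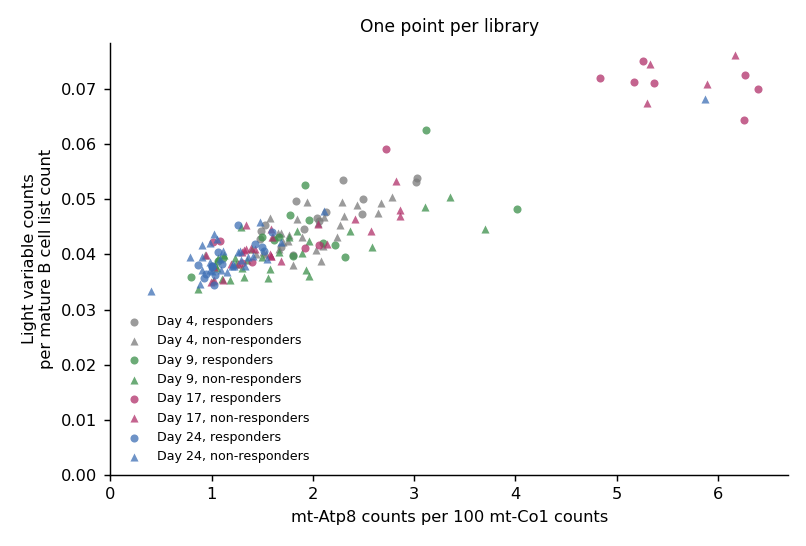
Light variable counts per count of the mature B cell list (y axis) against mt-Atp8 counts per 100 mt-Co1 counts (x axis), with a point per library, colored by day and with a marker for response. The 11 Day 17 libraries beyond 4.5 on the x axis sit at 0.0644 to 0.0763, above the other Day 17 libraries.

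Without the libraries above 4.5, the Day 17 comparison with Day 4 gave 33 of 69 tested genes lower in responders (median log2 difference -0.66) and 55 of 70 in non-responders (median -0.45), each with 0 higher. Of all genes tested in those fits 10.2% and 25.1% were lower. With the log2 of the mt-Atp8 ratio as a covariate, 25 of 70 genes were lower on Day 17 in responders and 40 of 76 in non-responders (all genes tested, 11.6% and 21.2%). On Day 24 the ratio was lowest (median 1.09 apart from non-responder 2, against 1.93 on Day 4). There the covariate left 2 of 70 genes lower in responders (2.86%, against 7.41% of all genes tested). In non-responders it left 13 of 76 (17.1%, against 18.8% of all genes tested), so that neither count exceeded the background. Since the ratio itself differed between the days compared, its part and that of the day cannot be told apart. The Day 9 counts stood at 39 and 63 with the covariate (all genes tested, 13% and 21.6%).

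The genes around the light variable genes fell in part with them. Of the 4 light constant genes, Igkc (kappa) fell by 0.57 on the log2 scale from Day 4 to Day 9 in responders (SE 0.10, edgeR adjusted p = 7.6e-06) and by 0.48 in non-responders (SE 0.07, adjusted p = 1.0e-09). Iglc1 fell by 0.44 in each group, Iglc3 was called lower in non-responders only (-0.24, edgeR adjusted p = 0.0027; responders -0.25, adjusted p = 0.14), and Iglc2 was not called in either group. Per light constant count, the light variable counts went from 0.401 ± 0.032 on Day 4 to 0.350 ± 0.017 on Day 9 in non-responders (higher in 0 of 29 mice) and from 0.420 ± 0.030 to 0.385 ± 0.047 in responders (higher in 3 of 15). The variable genes thus fell somewhat more than the summed constant genes, a difference beyond the pooled SD in non-responders (log2 -0.20, pooled SD 0.10) and about as large as it in responders (-0.13, pooled SD 0.14).

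Of the 12 mature B cell genes, 12 were lower on Day 9 in non-responders and 8 in responders, 10 and 10 on Day 17, and 7 and 2 on Day 24. Cd79a, a signalling chain of the B cell receptor, fell by 0.61 on the log2 scale in non-responders (SE 0.07, edgeR adjusted p = 2.3e-14) and by 0.66 in responders (SE 0.10, adjusted p = 1.2e-06) on Day 9, and Cd79b, its partner, by 0.56 and 0.62. In responders on Day 24 the list also had 2 genes higher, Pax5 and Blk. The 4 T cell genes fell on Day 9 in each group as well (medians -0.64 in non-responders and -0.59 in responders) and on Day 17 (-0.43 and -0.34), beside the B cell genes. On Day 24, 4 of them were lower in non-responders and 3 in responders (medians -0.34 and -0.35). Genes of myeloid cells were higher on Day 9. Of the 4 neutrophil genes 3 rose in non-responders (Csf3r, S100a8 and S100a9; list median 0.93) and 2 in responders (Csf3r and S100a9; 0.50), and of the 3 monocyte genes 3 rose in non-responders (list median 0.60) and Ccr2 alone in responders (0.38). The monocyte genes were mixed later: on Day 17 Csf1r and Ccr2 rose in non-responders and Ly6c2 fell in responders, and on Day 24 Ly6c2 fell in each group and Ccr2 rose in non-responders (list medians -0.14 in non-responders and -0.35 in responders). On Day 17 Csf3r, S100a8 and S100a9 rose and Retnlg fell in each group (medians 0.77 in non-responders and 0.52 in responders). On Day 24 those 3 rose in non-responders (list median 0.48), and no neutrophil gene was called in responders (-0.16). Of the 6 red cell genes 5 rose in non-responders on Day 24 (list median 1.01; 4 and 0.41 without the library of non-responder 29) and 0 were called in responders (-0.23). The part of these other cells in the lower light variable level was not tested.

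The 10 plasma cell genes were mixed, and Jchain and Xbp1 were among those that rose. Jchain, the joining chain of secreted IgM and IgA, was at 1.30 CPM in the median non-responder library on Day 4 (0.388 to 2.20), 1.90 (0.934 to 3.87) on Day 9, 3.06 (1.12 to 5.45) on Day 17 and 3.36 (0.951 to 5.69) on Day 24. It rose by 0.51, 1.1 and 1.33 on the log2 scale (SE 0.13 each, edgeR adjusted p of 0.00072, 1.7e-11 and 4.3e-14). In responders Jchain was at 1.42 (0.537 to 3.04), 2.52, 3.81 and 2.98 (1.62 to 5.32), and rose by 0.74, 1.19 and 1.12 (edgeR adjusted p of 0.0096, 9.1e-05 and 0.00056). The ranges of Day 4 and the later days overlapped in each group. Xbp1, a factor of secretory cells that other blood cells also express, rose on Day 9 by 0.34 in responders and 0.64 in non-responders (edgeR adjusted p of 0.00072 and 9.5e-12). On Day 9 Prdm1 also rose and Mzb1 and Tnfrsf13b fell in each group, and Irf4 fell in non-responders, so that 3 of the list were higher in each group and 2 (responders) or 3 (non-responders) lower. On Day 17 more of the list fell than rose: Tnfrsf13b, Sdc1, Irf4, Mzb1 and Slamf7 were lower in each group, against Jchain higher in responders and Jchain and Xbp1 in non-responders (list medians -0.28 and -0.16). On Day 24 Jchain and Irf4 were higher in responders, and in non-responders Jchain was higher and Tnfrsf13b and Slamf7 lower. The 8 joining segments did not pass the filter in any comparison. Of the 6 genes listed around light chain rearrangement 2 passed. Vpreb3, which is not itself a gene of the joining step, fell on each later day in each group. By contrast, Rag1 rose on Day 9 and Day 17 in non-responders (log2 0.73 and 0.71).

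Responders were compared with non-responders on each day by the same test, with a call where the adjusted p was 0.05 or less and the fold 1.5 or more. None of the 71 light variable genes tested was called on Day 4, where 4.21% of all 12620 genes tested were. None of 59 was called on Day 9 (3.65% of all), none of 65 on Day 17 (0.264%, or 0.416% without the Day 17 library of non-responder 24 and 0.474% with it as a responder) and none of 64 on Day 24 (0.297%, or 0.762% without the library of non-responder 29). DESeq2 also called 0 on each day. At an unadjusted p under 0.05, edgeR had 6, 7, 6 and 4 of them higher in responders on Days 4, 9, 17 and 24, and 0 lower. These were 8.45%, 11.9%, 9.23% and 6.25% of those tested, below the 20.7%, 25.1%, 20.6% and 24.3% of all genes tested with such a p in either direction. That order turned on Day 17 with the tag series as a covariate (25.4% of the light variable genes against 10.2% of all) and with 3-digit tags alone (33.8% against 9.19%), and with 4-digit tags alone on Day 9 (12.8% against 12.1%) and Day 24 (19.4% against 14.1%). Their median log2 differences were 0.11, 0.14, 0.21 and 0.10, against medians of all genes tested between -0.02 and 0.01, and 58, 44, 57 and 47 of them were above 0. With 3-digit tags alone (4 responders) the direction turned on Day 9 (median -0.11, 20 of 64 above 0) and on Day 24 (-0.11, 20 of 71), and with the tag series as a covariate the Day 9 median was 0.02 (35 of 63 above 0). On TPM, where the median of all genes tested was -0.70 on each of Days 4 and 9, the medians of the light variable genes were -0.70 and -0.68. On DESeq2's scaling they were 0.12 and 0.15, with medians of all genes tested of -0.0035 and -0.019. A Wilcoxon test on TPM, with its own filter, had 69 of 94 light variable genes lower on Day 4 (73.4%) and 69 of 90 on Day 9 (76.7%), below the 84.9% and 88.6% of all genes that it had lower. Genes within a library are not independent of each other.

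By adjusted p alone 2 genes passed on Day 24, where 3.41% of all genes tested were higher in responders by that rule. Without the library of non-responder 29, 3 passed (Igkv4-59 in addition) and 12.6% of all genes were higher. Igkv4-59 also passed on Day 24 with the libraries high in mt-Atp8 left out and with the ratio as a covariate. By the same rule DESeq2 called Igkv17-127 higher on Day 9 (log2 0.38, DESeq2 adjusted p = 0.045). On Day 24 it called Igkv4-59 in addition to the 2 genes (0.35, DESeq2 adjusted p = 0.046). In DESeq2 9.88% of all genes were higher on Day 9 and 5.6% on Day 24. Igkv8-19 was at 0.411 CPM in the median responder library (0.255 to 0.672) and at 0.298 (0 to 0.732) in the median non-responder library, a log2 difference of 0.48 (SE 0.13, edgeR adjusted p = 0.0178). Igkv1-117 was at 3.82 (2.69 to 4.85) and 3.21 (0.951 to 5.03), a log2 difference of 0.25 (SE 0.08, edgeR adjusted p = 0.0447), with the doubt about shared reads named above. Neither was called with the tag series as a covariate (edgeR adjusted p of 0.096 for Igkv8-19 and 0.22 for Igkv1-117). The same held with 3-digit tags alone (0.56 and 0.69) and with 4-digit tags alone (0.27 and 0.33). Their log2 differences were 0.50 and 0.22 with the tag series, 0.36 and 0.16 with 3-digit tags and 0.60 and 0.27 with 4-digit tags. Igkv1-117 was also not called with genes kept at 1 count in any library (log2 0.25, edgeR adjusted p = 0.090). Both calls held with DESeq2, without haemoglobin genes and without the library of non-responder 29. They also held with the libraries high in mt-Atp8 left out and with the ratio as a covariate. A Wilcoxon test on TPM called neither (adjusted p of 0.78 and 0.80). The responder ranges of Igkv8-19 and Igkv1-117 lay within those of the non-responders. Those non-responder ranges include the library of non-responder 29, with 56 light variable counts, and their low ends may rest on it. By edgeR with the filter on low counts and no covariate, the smallest adjusted p on the other days were those of Igkv4-68 on Day 4 (0.095), Igkv4-50 on Day 9 (0.067) and Igkv3-10 on Day 17 (0.089).

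On Day 17 the fit with the positive median of 0.21 held the libraries high in mt-Atp8, which included 7 of 14 responder and 4 of 30 non-responder libraries. These libraries were also high in light variable counts. Leaving them out thus lowers the responders more than the non-responders whatever the cause, which was not tested. Without them the median was -0.09 and 20 of 64 tested genes were above 0, and with the ratio as a covariate it was -0.15 and 12 of 67 were above 0. Each of those fits also called 0 of the light variable genes on that day.

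The difference between the groups in their change from Day 4 was tested as an interaction over all 13688 genes that passed. Of the 74 light variable genes tested, 0 were called for the change to Day 9, Day 17 or Day 24, where 0%, 0.351% and 3.76% of all genes tested were called. The Day 17 background was 0.565% with the Day 17 library of non-responder 24 as a responder. The Day 24 background was 1.12% without the library of non-responder 29 and 1.27% with the mouse as a block, and 0 light variable genes were called in those fits too. At an unadjusted p under 0.05 there were 4, 3 and 4 of them (5.41%, 4.05% and 5.41%; all genes tested, 5.25%, 10.2% and 18.4%), and the smallest adjusted p values were 0.86, 0.34 and 0.21. The Day 4 to Day 9 falls of Iglv2 and Iglv3, called in 1 group only, were therefore not shown to differ between the groups. No light constant, plasma cell or T cell gene was called for a difference in change either. In the change to Day 24, S100a8 and S100a9 of the 4 neutrophil genes, Ccr2 of the 3 monocyte genes and 4 of the 6 red cell genes (Slc4a1, Alas2, Hbb-bs and Hbb-bt) were called lower in responders (list medians -0.66, -0.39 and -1.21), and Pax5 of the mature B cell genes higher. None of these 8 was called without the library of non-responder 29 on Day 24, with 3-digit tags alone or when paired by mouse.

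The ratio of kappa to lambda variable counts was 7.38 ± 1.12 (SD, n = 178; range 4.09, in the library of non-responder 29 on Day 24, to 11.2), so that lambda made up 12.1% of the light variable counts. Per length, from TPM, the ratio was 8.19 ± 1.24. In non-responders it was 6.92 ± 1.04, 6.71 ± 0.66, 7.85 ± 1.00 and 7.27 ± 0.93 on Days 4, 9, 17 and 24. In responders it was 8.11 ± 1.19, 7.24 ± 1.12, 7.97 ± 1.20 and 7.76 ± 1.37. The ranges overlapped on every day, and the widest separation was on Day 4, where 13 of 15 responders lay above the median non-responder (5.66 to 9.67 against 5.26 to 9.25; log2 difference 0.23, pooled SD 0.22). Iglv1 alone took 8.54% ± 1.26 of the light variable counts in responders and 9.76% ± 1.19 in non-responders on that day. No test was made on the ratio, and none of the 3 lambda genes was called between the groups (edgeR adjusted p on Day 4 of 0.66, 0.74 and 0.68 for Iglv1, Iglv2 and Iglv3).

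The constant genes gave a lower and less even ratio. Igkc counts per summed Iglc1, Iglc2 and Iglc3 counts were 3.61 ± 1.08 (range 2.28 to 8.36). They were highest on Day 4 (4.12 ± 1.5 in non-responders and 4.93 ± 1.81 in responders) and 3.03 ± 0.24 and 3.96 ± 1.28 on Day 24. Over the Day 4 responders, Iglc2 ranged from 6.88 to 36.1 CPM. The variable and constant ratios were therefore on different levels, and the variable ratio had the smaller spread relative to its mean.

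The number of light variable genes with a count was 93 ± 7.5 of 163 per library (range 30 to 107), and the 30 was the library of non-responder 29 on Day 24. On Days 4, 9, 17 and 24 it was 97 ± 5.1, 93 ± 4.6, 93 ± 5.6 and 92 ± 12 in non-responders and 93 ± 6.6, 87 ± 7.5, 92 ± 5.7 and 93 ± 5.4 in responders. Rarefied to 758 counts, the sum of the next smallest library, 80.5 ± 1.8 genes were expected (range 74.7 to 85.5, n = 177 libraries), and the responder and non-responder means differed by less than 1 gene on each day. The lower number in responders on Day 9 (-5.93 genes, pooled SD 5.70) became -0.96 (pooled SD 1.98) after rarefaction.

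Evenness, the Shannon entropy of the counts divided by its maximum for the genes detected, was 0.856 ± 0.014 (range 0.828 to 0.942), where 1 stands for equal use and the 0.942 was again non-responder 29 on Day 24. In non-responders it was 0.847 ± 0.011, 0.853 ± 0.011, 0.858 ± 0.010 and 0.859 ± 0.018 on the 4 days, and in responders 0.858 ± 0.014, 0.865 ± 0.012, 0.864 ± 0.010 and 0.854 ± 0.011. Responders exceeded the median non-responder in 13 of 15 mice on Day 4 and 13 of 15 on Day 9, by mean differences of 0.0109 (pooled SD 0.0121) and 0.0128 (pooled SD 0.0113). The inverse Simpson index, which weights the abundant genes, was 30.9 ± 2.0 in non-responders and 32.2 ± 1.6 in responders on Day 4, and 30.7 ± 2.2 and 31.4 ± 1.8 on Day 9. Evenness divides by the number of genes detected, which was lower in the shallower responder libraries of those days (a mean of 2967 light variable counts in responders and 4438 in non-responders on Day 4), and the part of depth in the difference was not tested.

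**Figure D5:**
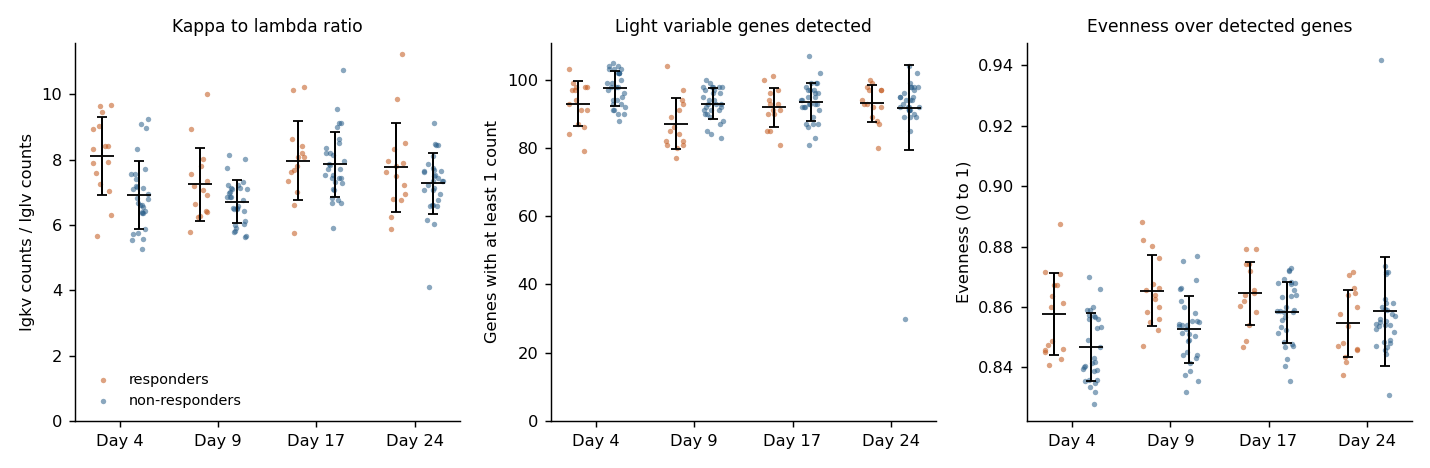
Ratio of kappa to lambda counts, number of light variable genes with at least 1 count and evenness (axis not from 0), by day and response group, with a point per library, a bar for the mean and whiskers for 1 SD. The groups overlap on every day, and the Day 4 kappa to lambda ratio has the widest separation (8.11 in responders and 6.92 in non-responders).

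The spread of gene shares over libraries, which includes differences between mice, days and groups, is given as a description. For the 38 genes with a mean of at least 20 counts, the variance of the share of the light variable counts over 177 libraries was 1.5 to 5.17 times the binomial variance (median 1.95). Iglv1 had the highest ratio (5.17), then Igkv6-32 (3.06) and Igkv1-117 (2.84). Reads without molecular identifiers are not independent molecules, so that the binomial variance is a lower reference.

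Large shares of a single gene in a single mouse were searched for as a description. The search took genes with at least 2% of a library's light variable counts and at least 4 times their own median share, and found 4 such values in 178 libraries. Igkv4-50 took 4.27% in responder 7 on Day 9 (67 of 1567.51 counts), 11.0 times its median of 0.387%. In the same mouse it took 0.466% on Day 4, 0.214% on Day 17 (2 counts) and 0.436% on Day 24, so that it was high on a single day. Igkv8-16 took 2.02% in responder 5 on Day 9 (19 of 941 counts), and 0.425%, 0.288% and 0.497% on the other days. The germline ends of both are given, with the same use of capitals, since their values rest on more than 2 counts. The Igkv8-16 value is uncertain, since 47.7% of that gene's values above 0 were not whole, although it shared no stretch of 50 identical bases with another light variable gene.
Igkv4-50: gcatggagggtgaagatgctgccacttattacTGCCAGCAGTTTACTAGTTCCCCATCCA
Igkv8-16: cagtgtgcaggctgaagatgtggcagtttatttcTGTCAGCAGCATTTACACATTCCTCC

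Igkv4-50 lies at chr6:69700767-69701287 and Igkv8-16 at chr6:70386672-70387252, each on the minus strand. The remaining values, Igkv3-12 and Igkv3-5, were 2 counts each of the 56 in the library of non-responder 29 on Day 24 and are not readable at that depth. The level of Igkv4-50 over the 15 Day 9 responders ran from 0.077 to 1.98 CPM with a median of 0.192, against 0.0751 to 0.497 with a median of 0.164 in the 30 non-responders. Apart from these values no light variable gene took a share of that kind in any library, and none did so on more than 1 day of a mouse.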

How the data were processed

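Whole-blood RNA was sequenced with a polyadenylated RNA protocol, and the submitters' processing notes name STAR and mm10; the counting tool is not given in the sources used here. The authors deposited estimated counts per gene (expected counts, which need not be whole) and TPM per gene, scaled to a common sum in each library. Gene positions, lengths and sequences came from GENCODE M21 (GRCm38), to which all 55450 gene IDs matched.

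The members and gene lists were chosen with earlier results of these data known. Counts were rounded and tested with edgeR 4.0.16 in R 4.3.3 (TMM, filterByExpr, quasi-likelihood F test, Benjamini-Hochberg adjustment over all genes that passed). Day comparisons were fitted within a response group, response comparisons within a day, and the interaction over all libraries. The p-values of the response comparisons within a day measure the spread between mice. Those of the day comparisons and the interaction measure the spread between libraries. These fits took the libraries of a mouse as independent, except where the mouse was a block. Shares, ratios and evenness of the unrounded counts are descriptions without a test. Genes were named by rule: the 10 highest by share of TPM, the 3 lambda genes, the 3 calls smallest in p per comparison and direction, and the genes of the dominance search; others were named after their values were seen.

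The ear tag in the labels ties the libraries of a mouse, and over 264 such pairs the deviations from the group means correlated at a median of 0.0431 (-0.391 to 0.440), against -0.00108 between mice. The tests were tried on simulated counts. In the Day 4 comparison of responders and non-responders (12577 genes) 66% of genes changed 1.5-fold and 98% of those changed 2-fold were recovered. In the Day 9 comparison of non-responders (12752 genes) the shares were 76% and 94%. Recovery needed the adjusted p and the right sign but not the fold of 1.5 used between response groups. The simulated libraries were independent, all genes had the same spread, and genes of low mean count were not among those changed. Recovery under the rules and spread of the real data was not tested. Alternatives were DESeq2 1.42.0, a filter of 1 count in any library, removal of haemoglobin genes, a Wilcoxon test on TPM, the tag series, the mouse as a block, single libraries left out and, added after the data were seen, the mt-Atp8 ratio. Single replicates were not left out in turn, since each group held 14 or more libraries. Intervals for counting error were not given, since reads without molecular identifiers are not independent molecules.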

Additional observations from a re-analysis of the deposited data

Results flagged for a closer look

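A gene of the mature B cell list, Pax5, a transcription factor of B cell identity, differed between the groups in its change from Day 4 to Day 24, by 0.35 on the log2 scale (SE 0.10, edgeR interaction test, adjusted p = 0.036). It rose in responders (log2 0.33, SE 0.08, edgeR adjusted p = 0.0035) and was at -0.02 in non-responders (SE 0.06, adjusted p = 0.80), after a lower level in responders on Day 4 (-0.26, SE 0.08, edgeR adjusted p = 0.032). It was found among the 12 genes of that list, and 3.76% of all genes tested were called by the same test. The Pax5 call was lost without the library of non-responder 29 on Day 24 (0.31, adjusted p = 0.061; 1.12% of all genes called) and with the mouse as a block (0.36, adjusted p = 0.062; 1.27% of all genes called). It was also lost with genes kept at 1 count in any library (log2 0.36, edgeR adjusted p = 0.065), with 3-digit tags alone (0.32, 0.74) and with 4-digit tags alone (0.47, 0.086). The call held with DESeq2 (0.34, DESeq2 adjusted p = 0.016), without haemoglobin genes (0.35, edgeR adjusted p = 0.032) and with the tag series as a covariate (0.35, 0.034). It held too with libraries high in mt-Atp8 left out (0.35, edgeR adjusted p = 0.036) and with the ratio as a covariate (0.36, 0.040).

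In the change from Day 4 to Day 24, 7 genes of other blood cells also differed between the groups by the same edgeR interaction test, each with a lower change in responders. Among genes of red cells these were Slc4a1, the anion exchanger of the red cell membrane (log2 -1.50, SE 0.41, edgeR adjusted p = 0.025), Alas2, an enzyme of haem synthesis (-1.27, SE 0.36, adjusted p = 0.029), and the globins Hbb-bs (-1.18, SE 0.36, adjusted p = 0.042) and Hbb-bt (-1.23, SE 0.35, adjusted p = 0.031). The neutrophil genes S100a8 and S100a9 were at -0.88 (SE 0.26) and -0.81 (SE 0.24), each with an edgeR adjusted p of 0.035, and Ccr2, a chemokine receptor of monocytes, at -0.59 (SE 0.18, adjusted p = 0.044). Each of the 7 rose in non-responders, and none was called in responders. On Day 4 responders were already higher in Slc4a1 (log2 1.23), Alas2 (1.05), Hbb-bt (1.1), S100a8 (0.70) and S100a9 (0.53), with edgeR adjusted p of 0.0034, 0.0073, 0.014, 0.0036 and 0.028, and Hbb-bs and Ccr2 were at 0.98 and 0.32 (adjusted p of 0.12 and 0.089). None of the 7 was called without the library of non-responder 29 on Day 24 (log2 -0.86 to -0.55, edgeR adjusted p of 0.066 to 0.27) or with the mouse as a block (-0.87 to -0.57, adjusted p of 0.065 to 0.26). Of all genes tested, 2.1% were called with a lower change in responders with all libraries and no block. That share was 0.248% without that library and 0.222% with the mouse as a block. With 3-digit tags alone 0 of the 7 were called (edgeR adjusted p of 0.74 to 0.80), with genes kept at 1 count in any library 1, with 4-digit tags alone 3, with DESeq2 4, with the mt-Atp8 ratio as a covariate 5, and with the tag series as a covariate or the libraries high in mt-Atp8 left out 6 each.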

How the results depend on the processing

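Depth limited the test: the median library held 2587.5 light variable counts, and 59 to 74 of the 163 genes had enough counts to be tested. The fall from Day 4 to Day 9 kept its direction under every alternative tried for the count of genes. Paired by mouse, with the mouse as a replicate block, no count moved by over 1.5 times: 48, 10 and 15 genes were lower on Days 9, 17 and 24 in responders, 71, 39 and 55 in non-responders, and 0 differed in their change on each day. Of 551 values of named genes under the alternatives, 478 kept their call, 72 lost it and 1 turned: Iglv2 in non-responders on Day 24 was at 0.15 with 4-digit tags alone. The cause of these moves was not tested.

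Keeping genes with 1 count in any library also gave 1 gene higher than on Day 4 in responders on Day 17 and in non-responders on Days 17 and 24, where edgeR otherwise called 0. For the count of genes that differed between responders and non-responders, keeping genes with 1 count in any library gave 1 on Day 4 (Igkv4-71, lower) and 1 on Day 9 (Igkv18-36, higher), the tag series as a covariate gave 1 on Day 4 (Igkv1-88, higher), and adjusted p alone gave 2 on Day 24. A Wilcoxon test on TPM gave 69 of 94 lower on Day 4 (73.4%) and 69 of 90 on Day 9 (76.7%), where 84.9% and 88.6% of all genes tested were lower and the median log2 difference of all genes was -0.70 on each day. For the fall from Day 4 in responders, the counts on Days 9, 17 and 24 were 10, 0 and 0 with 3-digit tags alone and 23, 14 and 2 with 4-digit tags alone. A fold of at least 1.5 left 3 of 65 on Day 17 and 5 of 65 on Day 24. By that rule 4.5% and 3.15% of all genes tested were called in either direction, so that the Day 17 count was near the background. Leaving out libraries high in mt-Atp8 gave 33 on Day 17, and the ratio as a covariate 25 on Day 17 and 2 on Day 24. In non-responders the fold left 38, 2 and 3 of 70. By that rule 9.89%, 4.96% and 6.03% of all genes tested were called in either direction, so that Days 17 and 24 were below the background. There 4-digit tags alone gave 14, 6 and 1, libraries high in mt-Atp8 left out 55 on Day 17, and the covariate 13 on Day 24.

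For the summed share, responders minus non-responders (log2) was -0.67 and -0.61 on Days 4 and 9 per all counts, 0.0981 and 0.0925 on TMM-scaled CPM, 0.0654 and 0.132 per light constant count, and 0.0933 and 0.141 per mature B cell count; with 3-digit tags alone it was 0.60 on Day 17. Against Day 4, responders were at 0.60 (3-digit tags) and 0.23 (per mature B cell count) on Day 17 and at -0.20 (per light constant count) and -0.27 (per mature B cell count) on Day 24. Non-responders were at -0.147 on Day 9 and 0.0218 on Day 17 per mature B cell count, and at -0.20 on Day 24 per light constant count. Their kappa to lambda ratio on Day 24 was at -0.19 with 4-digit tags alone. The number of genes detected, responders minus non-responders, was -10.5 on Day 4 with 3-digit tags alone, and 0.216 on Day 4 and 0.242 on Day 9 rarefied to 56 counts. Against Day 4 it was 9.25 in responders on Day 17 with 3-digit tags alone, and 0.314 and 0.468 in non-responders on Day 17 when rarefied to 56 and to 758. The responder change from Day 4 to Day 9 was -0.772 by inverse Simpson index and 0.418 percentage points by the share of the top gene.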
